A study of Mus musculus with 10 samples.

Results

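Pontin (gene symbol Ruvbl1) was deleted in mouse embryonic stem (ES) cells, and the transcripts of the depleted cells were compared between day 4 and day 3 after the start of deletion. The cells were Pontinf/f; CreER ES cells, derived from blastocysts of mice that carry floxed Pontin alleles together with Cre recombinase fused to an oestrogen receptor domain. 4-hydroxytamoxifen (OHT) lets the fusion protein enter the nucleus, where it excises the floxed exon. 1 library was sequenced of cells 3 days after OHT (OHT 3D), 1 of cells 4 days after OHT (OHT 4D), and 1 of the same cells without treatment (WT). The floxed alleles and CreER are shared by all 3 libraries. Neither the labels nor the methods give an untreated library for each day, so depletion, the drug and time in culture cannot be told apart. Such ES cells were grown with or without mouse embryonic fibroblast feeders, and which of these held for the sequenced cells is not given.

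Members of the comparison were the genes with more than 1 CPM (counts scaled to library size after the authors' TMM normalization) at OHT 3D or at OHT 4D. They numbered 12786 of the 22713 gene IDs in the table. Around the filter, 168 genes had their higher value between 1 and 1.1 CPM, and 160 genes had it between 0.9 and 1 CPM and stayed out. The libraries held 17187595 reads on genes at OHT 3D, 17693181 at OHT 4D and 17869218 in WT. 1 was added to each CPM before the log2 was taken, and a gene is called higher or lower where the log2 difference passed 0.58 in that direction, which is the limit of the study's methods and about 1.5-fold. With 1 library a day there is no replicate check and no test, and the intervals given below are 95% intervals that cover the counting of reads only. The scale of variation can be read only from other cells. These are ZHBTc4 ES cells 4 days after infection with lentivirus that carries a control shRNA or one against linc1253 (shlinc1253). Between the 2 control shRNA libraries of ZHBTc4 ES cells 3.13% of 13178 expressed genes differed by more than 0.58, and between the 2 shlinc1253 libraries 2.62% of 13216 did.

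Pontin and its partner Reptin (Ruvbl2) are ATPases of the AAA+ family that form a ring. The ring is a core part of the chromatin complexes TIP60-p400, INO80 and SRCAP, which acetylate histones, slide nucleosomes and exchange the histone variant H2A.Z. With further partners it forms the R2TP complex, a chaperone that assembles small nucleolar ribonucleoproteins, RNA polymerase II and the large PIKK kinases such as mTOR and ATM. ES cells keep their state through a network of factors around Oct4 (Pou5f1), Sox2 and Nanog, and give rise on differentiation to the germ layers and, in some settings, to cells with primitive endoderm or trophectoderm genes.

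Ruvbl1 (chr6:88415403-88447566, build NCBIM37) had 198 CPM in WT, 33.3 CPM on day 3 and 50.9 CPM on day 4. The gene was low at both days, and its level at OHT 4D was above that at OHT 3D by a log2 difference of 0.60 (counting interval 0.47 to 0.73). Deletion removes a single exon, so a count over the whole gene cannot tell intact from deleted transcripts. Rif1, which acts at telomeres and in replication timing and is needed for ES cell maintenance, moved the opposite way on the second day. It lies at chr2:51928357-51977903 and had 331 CPM in WT, 432 CPM on day 3 and 191 CPM on day 4. Rif1 was thus lower than in WT at OHT 4D alone, with a day 4 minus day 3 difference of -1.17 (-1.22 to -1.12). Ptch1 (chr13:63610261-63674474), the receptor that holds Hedgehog signalling in check, fell on both steps. Its level was 125 CPM in WT, 74.1 CPM on day 3 and 35.8 CPM on day 4. The second step of Ptch1 was -1.03 (-1.15 to -0.91) on the log2 scale.

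Between the days 731 genes were higher at OHT 4D and 1187 were lower. These are 5.72% and 9.28% of the members, the background for each count of higher and of lower genes below. The counting interval lay wholly past the limit for 186 of the higher and 685 of the lower genes. Set against WT, 6 classes follow. They do not hold all genes called higher or lower, and Trrap and Crebbp, both lower, are examples of called genes in none of them. 59 genes that were high at OHT 3D rose further, and 5 that were low fell further. 162 genes within 0.58 of WT at OHT 3D started to rise, so that they passed 0.58 over both OHT 3D and WT, and 569 started to fall by the same measure. 196 genes low at OHT 3D came back, and 189 genes high at OHT 3D fell back. Of all members 6.23% were more than 0.58 above WT and 5.93% below it on day 3, and 6.70% and 9.12% on day 4. 53.4% were above 0 between the days. A further 549 genes stayed within 0.58 of a raised level, and 557 of a lowered one. Of these 375 and 252 were still past the limit from WT at OHT 4D, while 174 and 305 were within it. The OHT 3D library enters both differences with opposite sign, so a chance deviation of that 1 library would by itself place genes among those that came back or fell back.

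**Figure D1:**
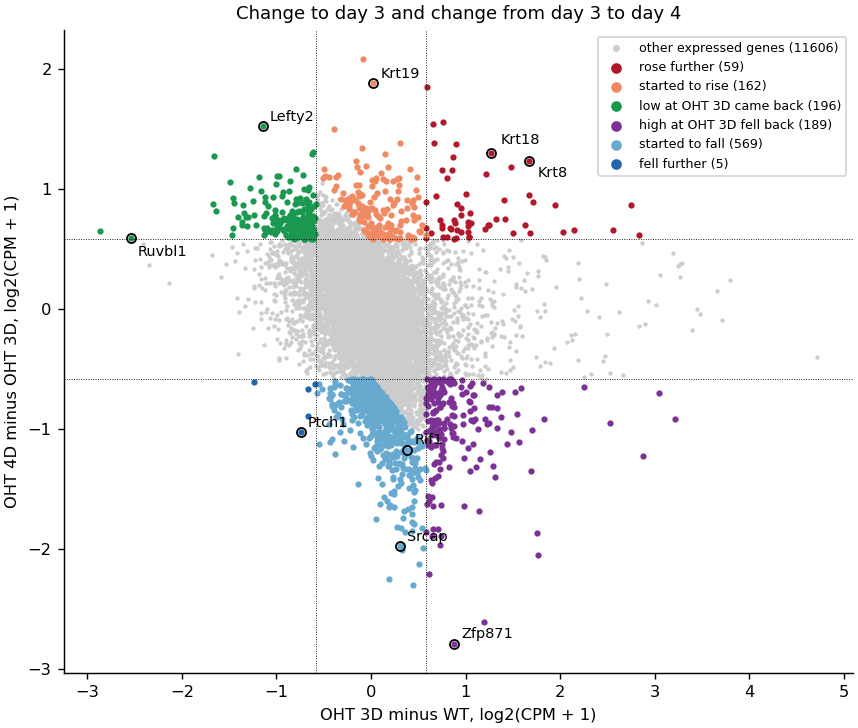
The log2(CPM + 1) difference of OHT 3D from WT (x axis) against that of OHT 4D from OHT 3D (y axis) for each of 12786 expressed genes, with the 6 classes coloured, their counts in the key and dotted lines at 0.58. Genes that started to fall are the most numerous class (569), and Zfp871 lies lowest at -2.79.

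A trend between the days ran with transcript length, longer transcripts being lower at OHT 4D. Among the 1279 genes with the shortest transcripts (longest coding transcript of 93 to 1277 bases) the median difference was 0.40, 17.7% were higher and 2.5% lower. Among the 1279 with the longest (6384 to 106824 bases) the median was -0.49, 0.469% were higher and 42% lower. Across 12782 genes Spearman's rho of the day 4 minus day 3 difference with transcript length was -0.584, a description over genes that share the same 2 libraries. The same rho was 0.198 for OHT 3D minus WT, -0.43 for OHT 4D minus WT, and 0.204 and 0.17 between the 2 pairs of shRNA replicates. With GC content the rho was 0.365 between the days, of no larger size than between the replicates (-0.43 and -0.398). The genes called here also differed between replicates as sets, replicate 2 minus replicate 1, with medians of -0.216 for the higher and 0.179 for the lower genes in control shRNA and -0.144 and 0.139 in shlinc1253. Lower genes had a median transcript of 5962 bases, higher genes one of 1699 and all members one of 3026. With 1 library a day, a change in the cells and a difference between 2 libraries cannot be told apart here. A length-matched difference is therefore given beside the results, which is the difference of a gene minus the median difference of genes in the same of 50 length bins. On that scale 495 genes were higher and 617 lower, and 264 and 457 of these were among those called as measured. Rif1 stood at -0.61, Ptch1 at -0.87 and Ruvbl1 at 0.35 when matched for length, the last under the limit. Matched for both length and GC content they stood at -0.54, -0.96 and 0.28, so that Rif1 too was under the limit.

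**Figure D2:**
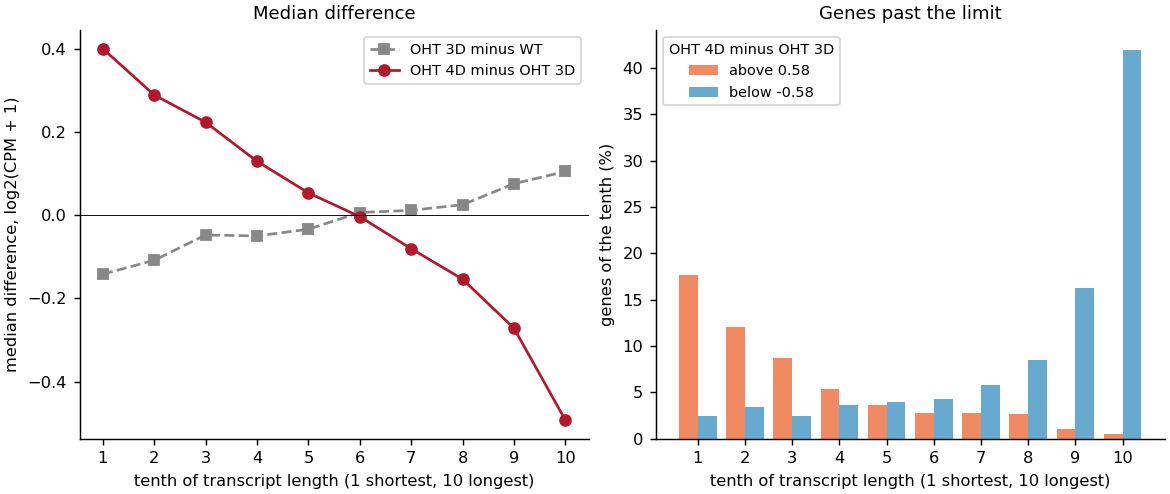
Left, the median log2(CPM + 1) difference in 10 equal groups of genes by transcript length for OHT 3D minus WT and OHT 4D minus OHT 3D; right, the percent of genes in each group above 0.58 or below -0.58 at OHT 4D against OHT 3D. The day 4 median falls from 0.40 in the shortest to -0.49 in the longest group.

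The genes that rose further included keratins, homeobox genes and others of varied function. The class was 0.461% of all members, and held 6 of 31 actin and contractile genes, 5 of 19 primitive endoderm genes, 4 of 17 trophectoderm genes and 3 of 7 mesoderm and primitive streak genes. Krt8 and Krt18, which pair to form the keratin filaments of simple epithelia and trophectoderm, rose on both steps. Krt8 had 19.8 CPM in WT, 65.1 CPM on day 3 and 155 CPM on day 4. Krt18 had 17.7, 44.2 and 110.2 CPM in the same order. The 2 steps of Krt18 were of like size, with log2 differences of 1.27 and 1.30, whereas the second step of Krt8 was smaller than its first (1.24 against 1.67). Both were also past the limit when matched for length on the second step, at 0.97 for Krt18 and 0.99 for Krt8. Rhox9 and Rhox6, homeobox genes of the X-linked reproductive homeobox cluster that are active in placenta and germ line, rose mostly on the second day. Rhox9 went from 3.04 CPM in WT to 5.07 on day 3 and 20.9 on day 4, and Rhox6 from 4.52 to 9.27 and 25.6. Cdx1, a caudal-type homeobox gene of the posterior embryo, had 1.61, 3.12 and 11 CPM. Gpnmb, a glycoprotein of lysosomes and melanosomes, had 1.83, 3.48 and 10.7 CPM. These 4 genes had length-matched differences from 0.96 (Rhox6) to 1.73 (Rhox9). Of the 59 genes, 40 were in the class on both scales, and for 14 the counting interval of each step lay past the limit.

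Igf2, Timp2, Tpm1 and Gata6, which the study names, also belong to this class. Igf2, a fetal growth factor, had 5.45 CPM in WT, 44.9 CPM on day 3 and 69.7 CPM on day 4, so most of its rise lay before day 3. Timp2, an inhibitor of matrix metalloproteases, had 5.32, 27 and 43.2 CPM. Tpm1, an actin-binding tropomyosin, had 94.8, 175 and 262 CPM, and its second step of 0.58 was only just past the limit. Gata6, a zinc finger factor that drives primitive endoderm, had 0.894, 2.44 and 7.27 CPM and a second step of 1.26 (0.93 to 1.60), larger than its earlier one of 0.86.

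Lineage lists are given next, beside the 5.72% of all members that were higher. Some of their genes passed the 1 CPM filter through OHT 4D alone. By construction their CPM was larger there than at OHT 3D, though not by construction past the limit. They were 3 of the primitive endoderm genes, 2 of the trophectoderm genes and 1 of the mesoderm genes. Of the 19 expressed primitive endoderm genes, 7 were higher at OHT 4D and 1 lower, with a median difference of 0.51 against 0.04 over all members. Beside Gata6 they included the adaptor Dab2 (7.47 CPM at OHT 3D, 13.7 at OHT 4D), the proteoglycan Srgn (1.99 and 7.8 CPM) and the endocytic receptor subunit Amn (0.995 and 2.54 CPM). Gata4 had 6.92 CPM at OHT 3D and 10.6 CPM at OHT 4D, and Sox17 0.724 and 1.62 CPM. The count of primitive endoderm genes more than 0.58 above WT went from 10 at OHT 3D to 15 at OHT 4D, beside 6.23% and 6.70% of all members, and the length-matched median was 0.58. Of 17 expressed trophectoderm genes 6 were higher and 0 lower, and matched for length 5 were higher and 1 lower. Their median was 0.43 as measured and 0.27 when matched. Their summed level went from 146 CPM in WT to 245 and 435 CPM, and most of this rise came from the keratins. Of the list 9 genes were more than 0.58 above WT on day 3 and 12 on day 4. The defining factors had few CPM, with 0.0894, 0.679 and 1.01 CPM for Cdx2, 0.313, 2.04 and 1.93 CPM for Gata3, and 0.268, 3.08 and 5.34 CPM for Hand1. Among 7 expressed mesoderm and primitive streak genes 4 were higher, all from low levels. These are Cdx1, Wnt3, Wnt3a and brachyury. The signals Wnt3 and Wnt3a had 1.4 and 1.63 CPM at OHT 3D and 2.89 and 3.11 CPM at OHT 4D.

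The defining genes of ES cells stayed near their WT levels. Pou5f1 had 301 CPM in WT, 296 CPM on day 3 and 347 CPM on day 4, and Nanog 367, 372 and 448 CPM. Sox2 had 458, 372 and 356 CPM, Esrrb 565, 609 and 601 CPM, Klf4 257, 291 and 293 CPM, and Zfp42 61.4, 63.2 and 64.1 CPM. None of these 6 passed the limit between the days or against WT. Over 26 expressed naive pluripotency genes 3 were higher and 3 lower, with a median of 0.08 as measured and -0.07 when matched for length. Nr5a2, an orphan nuclear receptor that acts on Pou5f1, was among the lower ones, with 46 CPM in WT, 45.4 CPM on day 3 and 24 CPM on day 4. In a bulk sample, a change in the share of cells that express a gene and a change in RNA per cell cannot be told apart.

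Fibroblast markers are given beside these results, since feeder cells may have been present. They stood far above WT at OHT 3D, with a median difference of 1.86 over 40 expressed of 42 genes. Their second step was smaller. Between the days 5 of them were higher and 2 lower as measured, and 10 higher and 0 lower when matched for length. The largest rise as measured was that of Fbln5, with 0.814 and 2.8 CPM at the 2 days. Fbln5 counts as higher on both scales but passed the 1 CPM filter through OHT 4D alone. The markers more than 0.58 above WT went from 35 at OHT 3D to 38 at OHT 4D, beside 6.23% and 6.70% of all members. The median between the days was 0.24, and their summed level was 1209 CPM in WT, 2077 CPM on day 3 and 2286 CPM on day 4. Col1a1 had 4.2, 46.5 and 64.6 CPM, Acta2 5.9, 94.6 and 112 CPM, and Postn 0.492, 7.33 and 8.63 CPM. Prrx1 had 4.84 and 2.93 CPM at the 2 days. The share of fibroblasts in the cultures is not given in the sources used here. Its part in the matrix and actin results, and in the rises of other genes such as Igf2, Timp2 and Tpm1, was not tested. Among 31 expressed actin and contractile genes 8 were higher and 2 lower as measured, and 3 higher and 0 lower when matched for length, with medians of 0.33 and 0.16. They included Zyx, a focal adhesion protein, with 24.1 CPM at OHT 3D and 40.3 CPM at OHT 4D. Of 23 expressed genes of fibrillar collagens and their processing 3 were higher as measured and 9 when matched for length. They included Bmp1, the procollagen C-proteinase (3.04, 12.3 and 23.6 CPM), and Serpinh1, the collagen chaperone (77.8, 75.9 and 130.1 CPM).

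Among the 162 genes that started to rise, Krt19 stood first of those with a mean of at least 5 CPM. Krt19 is a keratin of simple epithelia that lacks a tail domain, and lies at chr11:100002124-100009979. It had 7.11 CPM in WT, 7.24 CPM on day 3 and 29.4 CPM on day 4, a 4.07-fold rise over OHT 3D that rests on 160 and 672 reads. Krt7 rose with it, from 8.69 to 19.8 CPM after 5.9 CPM in WT. The other leading genes were Cmtm7 (14.3, 13.8 and 32.7 CPM), a membrane protein of the MARVEL domain family, Pkdcc (8.18, 5.52 and 13.7 CPM), a secreted tyrosine kinase, Gprc5a (9.39, 8.6 and 20.2 CPM), an orphan receptor, and Tmem37 (5.23, 3.89 and 9.59 CPM). All of them passed the limit also when matched for length, with values from 0.77 (Cmtm7) to 1.63 (Krt19). Gbp2, an interferon-induced GTPase, had a larger log2 difference than Krt19 from a lower level, with 1.12, 0.995 and 7.45 CPM. Of 14 expressed interferon response genes 6 were higher and 1 lower, and 2 were higher when matched for length, while 2 of the list, Gbp2 among them, passed the 1 CPM filter through OHT 4D alone. Those higher when matched were Gbp2 and the membrane protein Ifitm1, which had been low at OHT 3D (88.8, 56.1 and 114 CPM), whereas the RNA sensor Ddx58 was lower (43, 54.2 and 31.7 CPM). The Wnt target Sp5 went from 0.452 to 1.97 CPM and Fgf5, a growth factor of the primed epiblast, from 0.317 to 1.45 CPM. Both passed the 1 CPM filter through OHT 4D alone and so have a larger CPM there by construction. Over the class, 79 genes were in it on both scales, and the median level at OHT 3D was 2.76 CPM. Any of its genes under 1 CPM at OHT 3D entered through OHT 4D alone, and with a filter above 5 CPM the class held 92 genes.

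**Figure D3:**
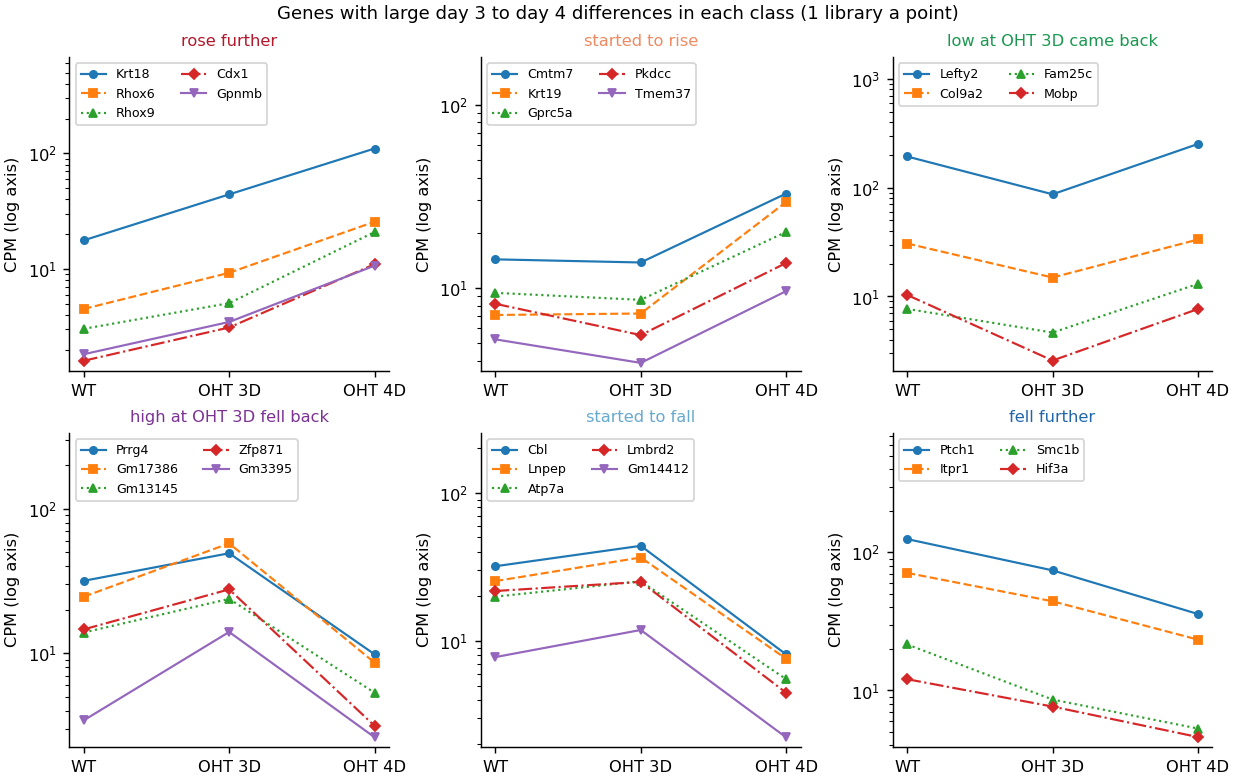
CPM (log axis) of WT, OHT 3D and OHT 4D, joined by lines, for the genes with the largest day 4 minus day 3 difference in each of the 6 classes among those with a mean of at least 5 CPM that are reported here, 1 library a point. Lefty2 dips to 86.9 CPM and returns to 252 CPM, while Cbl drops from 43.8 to 8.1 CPM only after day 3.

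Of the 196 genes that came back, 184 were within 0.58 of WT at OHT 4D, 2 were above WT by more than that, and 10 were still low, Ruvbl1 among them. Lefty2, a secreted inhibitor of the growth factor Nodal, had the largest return. It had 193 CPM in WT, 86.9 CPM on day 3 and 252 CPM on day 4. The second step of 1.52 (1.45 to 1.60) more than made up for the first of -1.14, and matched for length it was 1.40. Its neighbour and paralogue Lefty1, another Nodal inhibitor, returned in part, with 195, 60.5 and 112 CPM. Among pluripotency genes Dppa3, a maternal factor that guards DNA methylation, went from 55.7 to 27.2 and back to 57.3 CPM, and Tcl1, a coactivator of the kinase Akt, had 31.2, 17.1 and 29.4 CPM. Outside these lists the largest returns were of genes of varied function. Col9a2, a chain of collagen IX, had 30.7, 14.9 and 33.4 CPM. Mobp, named for its product in myelin, had 10.3, 2.58 and 7.67 CPM, and Fam25c had 7.69, 4.66 and 13.1 CPM. Otx2, a homeobox gene of the primed epiblast, and Fut9, the fucosyltransferase that makes the SSEA-1 epitope, did not return past the limit. Otx2 had 20.5, 10.5 and 12.6 CPM and Fut9 27.5, 13.3 and 11 CPM. The class as a whole had short transcripts, with a median of 1731 bases, and 70 of its genes were in it on both scales.

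In several metabolic lists fewer members were low against WT at OHT 4D than at OHT 3D. The WT library enters both of these counts. The OHT 3D library enters both the difference from WT on day 3 and the difference between the days. The hypoxia-inducible factor (HIF) binds its targets at sites that include ACGTG and drives glucose uptake, glycolysis and mitophagy when oxygen is short. Of 31 expressed HIF targets 17 were low at OHT 3D and 10 at OHT 4D, beside 5.93% and 9.12% of all members. Between the days 5 were higher and 0 lower. Ndufa4l2, which lowers the activity of respiratory complex I, had 17.5 CPM in WT, 1.54 CPM on day 3 and 2.98 CPM on day 4. Ankrd37 had 3.76, 1.63 and 3.29 CPM. P4ha2, a collagen prolyl hydroxylase subunit, had 16.5, 11.3 and 17.8 CPM, and Higd1a, a mitochondrial hypoxia protein, 33.3, 26.6 and 40.8 CPM. The mitophagy receptor Bnip3 had 141, 26.8 and 34.8 CPM, and Egln3, a prolyl hydroxylase that marks HIF for destruction, 56.4, 12.1 and 14.2 CPM. These last 2 did not pass the limit between the days. Ndufa4l2 did, yet at OHT 4D it was as far below WT (-2.22 on the log2 scale) as Bnip3 (-1.98) and Egln3 (-1.91), while P4ha2 and Higd1a had not been low at OHT 3D by the limit. Matched for length 1 HIF target was higher, and it was not Ndufa4l2, Ankrd37, P4ha2 or Higd1a. Windows of 250 bases before the start site were taken from RefSeq (build GRCm38.p6) for the HIF targets that were higher and for Bnip3 and Egln3, to show where ACGTG lies in genes that were higher between the days and in a pair that was not. Ndufa4l2 and Bhlhe40, also higher, had no entry. ACGTG on either strand is in capitals. No other form of the site was searched for, so a window without these letters may still hold one.
Ankrd37 (chr8:45999851-46000100, minus strand): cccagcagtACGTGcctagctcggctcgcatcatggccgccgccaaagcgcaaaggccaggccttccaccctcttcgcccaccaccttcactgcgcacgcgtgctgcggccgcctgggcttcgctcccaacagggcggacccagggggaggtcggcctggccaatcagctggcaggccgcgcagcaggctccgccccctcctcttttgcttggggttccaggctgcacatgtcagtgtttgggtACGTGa
P4ha2 (chr11:54100674-54100923, plus strand): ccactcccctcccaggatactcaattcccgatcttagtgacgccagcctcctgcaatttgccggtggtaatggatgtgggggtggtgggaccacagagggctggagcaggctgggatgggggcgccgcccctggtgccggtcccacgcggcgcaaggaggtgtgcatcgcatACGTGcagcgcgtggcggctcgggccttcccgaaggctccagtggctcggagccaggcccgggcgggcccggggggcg
Higd1a (chr9:121857797-121858046, minus strand): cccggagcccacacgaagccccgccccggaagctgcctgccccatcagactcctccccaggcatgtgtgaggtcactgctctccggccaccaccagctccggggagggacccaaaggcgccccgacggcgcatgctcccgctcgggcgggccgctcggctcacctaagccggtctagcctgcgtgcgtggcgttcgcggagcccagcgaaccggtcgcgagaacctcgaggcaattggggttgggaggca
Bnip3 (chr7:138909507-138909756, minus strand): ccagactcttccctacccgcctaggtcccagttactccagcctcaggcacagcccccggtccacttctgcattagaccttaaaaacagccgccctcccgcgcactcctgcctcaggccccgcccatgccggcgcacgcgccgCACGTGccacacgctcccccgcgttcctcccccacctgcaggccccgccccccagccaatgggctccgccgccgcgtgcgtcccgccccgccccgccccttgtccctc
Egln3 (chr12:54203875-54204124, minus strand): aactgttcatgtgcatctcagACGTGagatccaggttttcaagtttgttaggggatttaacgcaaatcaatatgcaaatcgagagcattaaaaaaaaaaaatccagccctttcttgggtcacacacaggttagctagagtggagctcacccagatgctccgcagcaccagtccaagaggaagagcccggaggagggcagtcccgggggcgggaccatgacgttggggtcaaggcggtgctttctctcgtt
The letters were found 2 times in the window of Ankrd37, 1 time in that of P4ha2, 2 times overlapping in that of Bnip3, 1 time in that of Egln3 and 0 times in that of Higd1a. The letters were thus found both in genes that were higher and in the pair that was not. Of 37 windows of 25 matched HIF targets 51.4% hold ACGTG, against 16.6% of 32851 windows of all genes and 21.7% of 11695 windows of expressed genes. Among the genes that came back the share was 20.8%.

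Glycolysis genes also stood nearer to WT at OHT 4D. The list overlaps with the HIF targets, with the same median of OHT 3D minus WT (-0.64), so their counts are not independent. Of 21 genes 11 were low at OHT 3D and 4 at OHT 4D, 20 of 21 were above 0 between the days, beside 53.4% of all members, and 3 passed the limit. Those were Ldhb, a lactate dehydrogenase subunit (409.7, 131 and 233 CPM), the lactate exporter Slc16a3 (86.5, 34.2 and 55.9 CPM) and the enolase Eno2 (6.12, 2.53 and 5.08 CPM). The glucose transporter Slc2a1 had 363, 264 and 384 CPM. Cholesterol synthesis went from 16 of 24 genes low at OHT 3D to 9 at OHT 4D (all members 5.93% and 9.12%), with 3 higher between the days. Mevalonate kinase (Mvk) had 21.3, 13.4 and 23.6 CPM, the sterol reductase Tm7sf2 9.39, 4.8 and 8.1 CPM, and the sterol isomerase Ebp, which had not been low, 23.5, 24.9 and 40.2 CPM. Targets of ATF4, the factor of the amino acid response, had 8 of 29 genes low at OHT 3D and 5 at OHT 4D. Between the days 3 were higher and 1 lower, the glycine transporter Slc6a9 (5.01, 4.39 and 2.41 CPM). Asparagine synthetase (Asns) had 350.3, 185 and 313 CPM, Phgdh, which opens serine synthesis, 246, 112 and 173 CPM, and mitochondrial Pck2 80.6, 43.9 and 71.7 CPM. Among lysosome and autophagy genes 7 of 28 were higher and 0 lower, among them the protease Ctsl (193, 126 and 209.7 CPM) and the sialidase Neu1 (36.5, 18 and 29.4 CPM). Matched for length fewer genes of these lists were higher, with 1 for HIF targets, 2 for glycolysis, 0 for cholesterol synthesis, 1 for ATF4 targets and 2 for lysosome genes. The medians matched for length were 0.12 for HIF targets, 0.12 for glycolysis, 0.22 for cholesterol synthesis, 0.06 for ATF4 targets and 0.22 for lysosome genes, against 0.22, 0.36, 0.33, 0.17 and 0.35 as measured.

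Lists of short transcripts moved up almost as a whole and by small amounts. All 77 of 77 expressed cytosolic ribosomal protein genes were above 0, beside 53.4% of all members, but 2 of them passed the limit, a share below the 5.72% of all members, with a median of 0.44. Of 75 nuclear genes of the respiratory chain 15 were higher and 0 lower, with a median of 0.48, among them Ndufa2 of complex I (30.6, 23.3 and 41.4 CPM) and Sdhb of complex II (85.6, 61 and 97 CPM). The median transcripts of these lists were 855 and 908 bases long, and their medians matched for length were 0.05 and 0.07. The 12 expressed mitochondrially encoded genes had a median of 0.20 as measured and -0.20 matched for length.

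**Figure D4:**
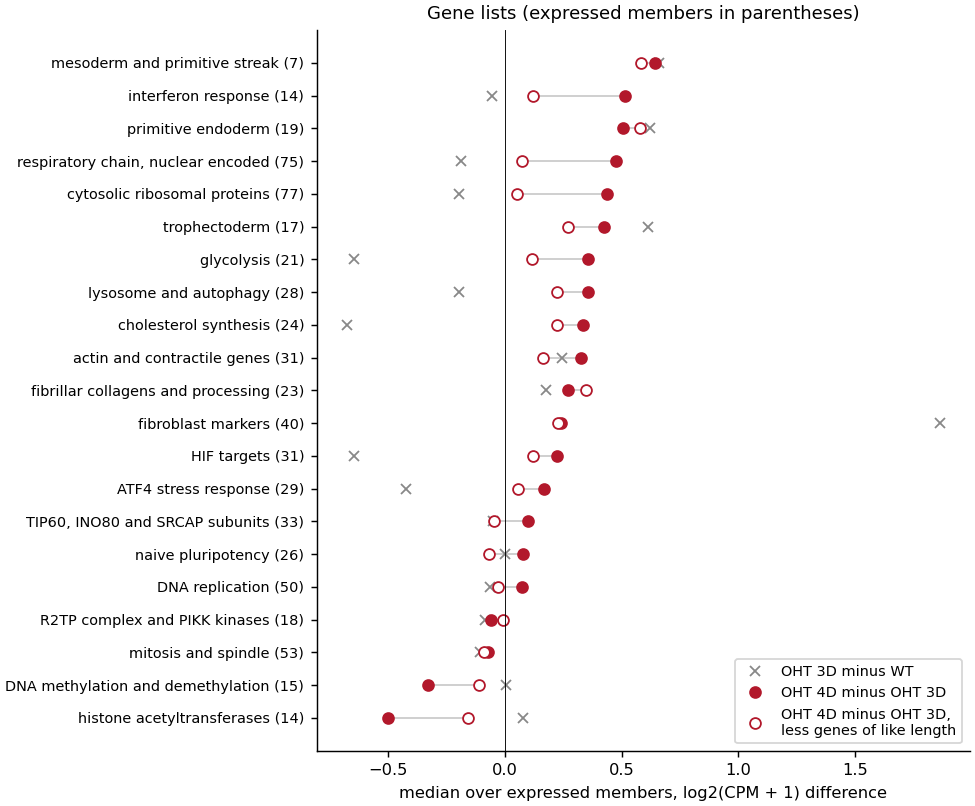
The median log2(CPM + 1) difference over the expressed members of 21 gene lists for OHT 3D minus WT (crosses), OHT 4D minus OHT 3D (filled) and the latter minus the median of genes of like transcript length (open). Respiratory chain genes move from 0.48 to 0.07 when matched for length, and primitive endoderm genes from 0.51 to 0.58.

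The 189 genes that fell back held the 2 largest falls of the comparison, of Zfp871 and Gm17386. 153 of them were within 0.58 of WT at OHT 4D, 23 were below WT by more than that, and 13 were still high. Zfp871, a zinc finger gene at chr17:32908181-32925232, had 14.7 CPM in WT, 27.7 CPM on day 3 and 3.15 CPM on day 4, an 8.79-fold drop from OHT 3D. Prrg4, a membrane protein with a Gla domain, had 31.8, 49.3 and 9.86 CPM. The predicted gene Gm17386 had 24.7, 57.7 and 8.63 CPM, Gm3395 3.44, 14.1 and 2.63 CPM, and Gm13145 13.9, 23.8 and 5.34 CPM. All 5 passed below WT in level at OHT 4D, and matched for length their differences ran from -3.02 (Gm17386) to -2.12 (Gm3395). Predicted genes can share reads with near-identical copies, so these 3 are uncertain. Neurod1, a neurogenic factor, had 5.05, 13.8 and 4.99 CPM. Tet1 and Tet2, dioxygenases that oxidise 5-methylcytosine, also rose and fell back, Tet1 with 408, 623 and 204 CPM and Tet2 with 78.4, 147 and 69.5 CPM. Their transcripts are long (14369 and 9179 bases), and matched for length the second step was -0.88 for Tet1 and -0.51 for Tet2. Of 15 expressed genes of DNA methylation and demethylation 4 were lower and 0 higher.

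The 569 genes that started to fall were led by Cbl, a ubiquitin ligase that turns off receptor tyrosine kinases. Cbl had 31.9 CPM in WT, 43.8 CPM on day 3 and 8.1 CPM on day 4, a difference of -2.30 (-2.51 to -2.09). Lmbrd2, a multipass membrane protein, had 21.7, 25 and 4.47 CPM. Lnpep, a membrane aminopeptidase of glucose transporter vesicles, had 25.3, 36.6 and 7.58 CPM, and the copper pump Atp7a 19.9, 25.3 and 5.52 CPM. The predicted gene Gm14412 had 7.78, 11.9 and 2.23 CPM. Each was above WT at OHT 3D, though within the limit. Matched for length they stood between -2.25 (Gm14412) and -1.79 (Atp7a), so their falls were far past those of genes of like length. Mdm4, the partner of Mdm2 in holding p53 in check, had 92.5, 116 and 31.9 CPM and a length-matched difference of -1.76, and Bmpr2, the type II BMP receptor, 7.73, 10.8 and 3.42 CPM. As a class these genes had long transcripts, with a median of 6754 bases, and 175 of the 569 were in the class on both scales.

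Zinc finger genes were common among the lower genes, a group chosen after its values were seen. Of 324 expressed genes with a Zfp symbol 76 (23.5%) were lower and 4 higher, against 9.28% and 5.72% of all members. Their median difference was -0.28 and their median transcript of 3235 bases was close to that of all members, with a length-matched median of -0.23.

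Of the complexes that hold Pontin, the subunit that moved most was Srcap, the ATPase that gives the SRCAP complex its name. Srcap had 38.7 CPM in WT, 48.1 CPM on day 3 and 11.5 CPM on day 4, a 4.19-fold drop from OHT 3D, and matched for length the log2 difference was -1.81. Among 33 expressed subunits of TIP60, INO80 and SRCAP 6 were lower and 1 higher, the latter being Ruvbl1 itself. The ATPase Ep400 of the TIP60 complex had 151, 174 and 90.5 CPM, and the scaffold Trrap 130.4, 166 and 95.3 CPM. Their transcripts are long, at 10909 and 12479 bases, and matched for length they stood at -0.21 and -0.07, with only 1 subunit of the list, Srcap, lower on that scale. Of the 18 expressed genes of R2TP and the PIKK kinases 1 was higher, again Ruvbl1, and 4 were lower, namely Trrap and the kinases Atm, Smg1 and Prkdc of its family. The DNA damage kinase Atm had 59.5, 73.6 and 27 CPM and Smg1, the kinase of nonsense-mediated decay, 132, 162 and 65.9 CPM, with length-matched differences of -0.69 and -0.56. Prkdc stood at -0.03 when matched, so 1 gene of the list, Atm, was lower on that scale. The 13 expressed genes of small nucleolar ribonucleoproteins had 0 higher and 0 lower. These were box C/D core and assembly genes, together with Gar1 and Nhp2 of the box H/ACA particles.

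Histone acetyltransferases had 7 of 14 expressed genes lower and 0 higher, with a median of -0.50. The coactivator Ep300 had 158, 167 and 86.3 CPM, its paralogue Crebbp 24.4, 29.9 and 16 CPM, the steroid receptor coactivator Ncoa1 31.4, 36.7 and 18.9 CPM, and Myst3, a MYST family acetyltransferase, 96.4, 121 and 46.3 CPM. The median transcript of the list was 6594 bases, the length-matched median was -0.16, and 1 member, Myst3 at -0.81, was lower on that scale. Mitosis and spindle genes had 6 of 53 lower and 0 higher as measured, among them the long transcripts of the spindle protein Aspm (116 CPM at OHT 3D and 54.4 CPM at OHT 4D) and the kinetochore motor Cenpe (194 and 93.8 CPM), and 0 lower when matched for length. DNA replication genes had 2 of 50 lower and 0 higher as measured, and 0 lower when matched for length. In the windows before the start site, CCAAT, the letters of NF-Y, was in 70.2% and TTTGAA, those of the cell cycle element CHR, in 42.6% of the 47 windows of mitosis genes, against 33.9% and 16% of all windows, and 35.3% and 10.3% of windows of expressed genes. Among genes that started to fall the shares were near the latter, at 33.5% and 9.05%. GCGCGAAA, the letters of E2F, was in 8% of the 50 windows of DNA replication genes, 0.256% of all windows and 0.539% of those of expressed genes. Either strand was counted for each.

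Few genes fell past the limit on both steps. The 5 that did were Ptch1, Itpr1, Hif3a, Smc1b and Usp51, and 2 of them were in the class on both scales. Matched for length the second step was -0.87 for Ptch1, and under the limit for Itpr1 (-0.17), Hif3a (-0.23) and Smc1b (-0.48). The calcium release channel Itpr1 had 71, 44.2 and 23.3 CPM, the HIF subunit Hif3a 12.1, 7.65 and 4.6 CPM, the meiotic cohesin subunit Smc1b 21.5, 8.6 and 5.3 CPM, and the deubiquitinase Usp51, named because the class is so small, 6.62, 3.8 and 2.02 CPM. The Hedgehog target and effector Gli1 had 54, 57.3 and 36.8 CPM, and 2 of 13 expressed Hedgehog pathway genes were lower, Ptch1 and Gli1, with 0 higher. Matched for length Gli1 was under the limit at -0.52, and 2 genes were lower, Ptch1 and Dhh, the latter near 1 CPM. Dhh (1.31 CPM at OHT 3D and 0.569 CPM at OHT 4D) passed the 1 CPM filter through OHT 3D alone. Its CPM was thus smaller at OHT 4D by construction. The median of the list was -0.38 as measured and -0.02 when matched. Mycn, a MYC family factor, had 169.5, 159.8 and 118 CPM and did not pass the limit.

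Measures that the classes did not use were set beside them. Pontin ChIP-seq of ZHBTc4 ES cells, 1 library with 1 GFP antibody library as control, was counted from 2.5 kb upstream to 500 bases downstream of each start site. The median log2 ratio of Pontin over GFP was 0.40 for genes that rose further, 0.26 for those that started to rise, 0.40 for those that came back, 0.46 for those that fell back, 0.44 for those that started to fall and -0.12 for the 5 that fell further. The median over all members was 0.46. The second measure was a contrast of cells without and with Oct4. In ZHBTc4 cells tetracycline (Tc) turns off the transgene that is their source of Oct4. The library at day 2 of Tc (Tc 2D) was set against the mean of the 2 control shRNA libraries, from another table that was normalized on its own. Those control cells had been infected with lentivirus and were sequenced on another instrument model. CPM summed over genes to 638591 for Tc 2D and to 980063 and 1.0151e+06 for the controls. Oct4 loss, infection and scale thus cannot be told apart in the shares below. Of the genes that rose further 44.1% were more than 0.58 higher at Tc 2D and 16.9% lower, against 16.6% and 29.8% of all members. Krt18 stood at 3.09, Krt8 at 2.44 and Gata6 at 2.14 on the log2 scale. Others of the class were not higher, such as Timp2 at -0.01, Gpnmb at -0.17 and Srgn at -1.37. Of the genes that came back 31.6% were more than 0.58 lower, near the 29.8% of all members, and 24.5% were more than 0.58 higher. Single genes of the class stood far from this, such as Lefty2 at -5.37. Of the genes that started to fall 16.7% were lower, with Rif1 at -0.73 and Srcap at 0.12.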

How the data were processed

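mRNA was measured by RNA-seq of polyA-selected libraries, and Pontin binding by ChIP-seq. The authors trimmed reads at a PHRED score under 20, aligned mRNA reads to NCBIM37 with TopHat (at most 2 mismatches and 10 locations), obtained gene counts with HTSeq, and deposited CPM (counts scaled to library size) after TMM normalization, in 2 tables normalized apart. The authors deposited the ChIP-seq reads as aligned positions with a mapping quality score, with a stated minimum above 5 (the lowest found was 6 for Pontin and 5 for GFP). Reads placed at several locations can move genes with near-identical copies, and levels set across the tables were scaled apart.

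From the CPM values whole reads were recovered at a tolerance of 0.01 for 100% of values. With 1 library a day no count test or other test could be fitted, so differences of log2(CPM + 1) between OHT 4D and OHT 3D are descriptions, with 95% counting intervals (delta method). Intervals and floors cover counting error only. Genes above 1 CPM in either library entered, and 0.58 was the limit for a call. Libraries were grouped by their labels, and replicates existed only for control shRNA and shlinc1253, each with 2 libraries. Transcript lengths came from the longest coding transcript of the mouse annotation given for the files' build, for 12782 of 12786 genes, and promoter windows from RefSeq.

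Genes were named by rule: the genes the study names for mRNA, the cell type markers, the 10 largest rises and falls and the 5 largest differences of each class with a symbol and a mean of at least 5 CPM, and up to 4 members of each of 44 gene lists. 1 gene that the rule names, and the count of its list, are not reported here. The members and the lists, taken from textbook knowledge, were chosen with earlier results of these data known. Alternatives changed the pseudocount, the filter, the scaling, the limit, the counting interval and the ChIP region, and length-matched settings were added after seeing the data. The scripts were tested on simulated data, and used Python 3.11.15, numpy 2.4.6, pandas 2.3.3 and matplotlib 3.10.9.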

Additional observations from a re-analysis of the deposited data

How the results depend on the processing

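Among the list medians and named genes no difference past the limit changed sign under the settings run, while over all expressed genes 26 lower and 0 higher ones had the opposite sign when matched for length. Among smaller ones, matching for length changed the sign of the medians of 13 lists (at most 0.20 in size as measured, and 0.24 when matched), including TIP60, INO80 and SRCAP subunits, naive pluripotency, basement membrane, mitochondrially encoded and DNA replication genes, and of 10 named genes, Fut9 and Pou5f1 among them. Median-ratio scaling changed the sign of 2 list medians. Of the recomputed summary values 58 stayed near the reported one (for a count, within 1.5 times) and 39 did not. With a pseudocount of 3 there were 368 higher genes, 21 that rose further, 2 that fell further, 93 that fell back, 87 that came back and 72 that started to rise, and 191 (control shRNA) and 190 (shlinc1253) genes past the limit between replicates. With a pseudocount of 0.5, 11 genes fell further. With a limit of 1, 62 genes were higher and 262 lower, 4 rose further, 0 fell further, 18 fell back, 6 came back, 33 started to rise and 99 started to fall, against 76 and 92 between the replicates. Where the whole counting interval had to pass the limit, 186 were higher and 685 lower, 14 rose further, 1 fell further, 50 fell back, 33 came back, 42 started to rise and 293 started to fall. Matched for transcript length (added after seeing the data), 617 were lower, 2 fell further, 125 came back and 226 started to fall. Matched for length and GC content (also added), 442 were higher and 612 lower, 3 fell further, 100 came back and 219 started to fall. Above 5 CPM, 92 started to rise, and 263 and 230 genes passed between the replicates. A higher limit, a larger pseudocount and fewer genes lower counts by construction, and for matching the cause was not tested. Of the values for lists and single genes 1027 did not move beyond the margin and 168 did.

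No paired analysis was possible because each day has 1 library and no result comes from a test, and the shared numbers belong to the shRNA libraries. For the same reason no setting leaves out a replicate. 1 read was worth 0.0452 CPM at OHT 3D and 0.0438 CPM at OHT 4D, so genes near 1 CPM rest on few reads.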

Other observations

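Lists not described above moved in both directions between OHT 3D and OHT 4D. Wnt targets and TCF factors had 5 of 20 expressed genes higher and 2 lower, where 4 passed the 1 CPM filter through OHT 4D alone. The lower ones included Apc, a scaffold of the complex that destroys beta-catenin (137 CPM in WT, 154 CPM on day 3 and 66 CPM on day 4, length-matched difference -0.49). Of 10 expressed neural ectoderm genes 2 were higher and 1 lower, with the intermediate filament Nes (29.5, 29.3 and 55.2 CPM, length-matched 1.26) and the tubulin Tubb3 (64.9, 50.4 and 79.9 CPM, length-matched 0.42 and so under the limit) higher and Neurod1 lower. Of 30 expressed p53 targets 0 were higher and 4 lower, among them the translesion polymerase Polk (28, 37.8 and 19.1 CPM) and the receptor Eda2r (81.7, 117 and 66.9 CPM). Of 19 expressed imprinted genes Igf2 was higher, while the zinc finger gene Peg3 (447, 663 and 264 CPM, length-matched -0.76) and the receptor adaptor Grb10 (42.6, 32.7 and 17 CPM, length-matched -0.68) were lower. Heat shock proteins had 3 of 18 higher, including the small chaperone Cryab (1.03, 6.79 and 13.2 CPM), none of them past the limit when matched for length.

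Among signalling lists, the BMP pathway had 1 higher and 1 lower of 20, with the homeobox gene Msx2 at 2.31 CPM on day 3 and 4.47 CPM on day 4. FGF and ERK signalling had 1 higher and 2 lower of 24, with the immediate early gene Egr1 at 8.78 and 4.95 CPM. The LIF and STAT3 pathway had 0 higher and 1 lower of 15, the shared receptor subunit Il6st (81.9 and 48.2 CPM). Matched for length Il6st stood at -0.55, under the limit, and 0 genes of that list were lower. Keratins and epithelial junctions had 5 higher and 2 lower of 23. Formative and primed genes had 2 higher and 0 lower of 15, namely Fgf5 and the zinc finger factor Zic2. Fgf5, also the higher gene of the FGF list, passed the 1 CPM filter through OHT 4D alone. EMT genes had 1 higher and 2 lower of 19, and basement membrane genes 1 and 2 of 20. Matched for length, EMT genes had 2 higher and 0 lower, and basement membrane genes 3 and 0, with a median that went from -0.05 to 0.24. Mitochondrial ribosomal proteins had 6 higher and 0 lower of 75, with a median of 0.33 as measured and 0.04 when matched for length. The MYC network, the unfolded protein response, telomere genes, PRC2 subunits and Hox genes each had 0 higher and 1 lower, namely Mga, Atf6, Rif1, Jarid2 and Hoxc13. Of these Mga, Atf6 and Jarid2 did not pass the limit when matched for length. 2-cell and germline genes had 1 higher and 1 lower of 16.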
